A study of Mus musculus with 4 samples.

Results

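The 10 genes described here encode factors linked to lymphocyte quiescence. They are the forkhead genes Foxo1, Foxo3 and Foxp1, the antiproliferative genes Btg1, Btg2, Tob1 and Tob2, the TSC22 domain genes Tsc22d3 and Tsc22d4, and Nr3c1, which encodes the glucocorticoid receptor. They were chosen by symbol with earlier results of these data known, as were the gene lists below. Comparisons of them with all rows are therefore descriptive and not independent of that choice. All 10 were found among the 25630 rows of the expression table. RNA came from BEKO, a mouse line of thymic lymphoma cells, grown at high density (libraries high-1 and high-2) or at low density (libraries low-1 and low-2). All 4 libraries share the line, a single tumour line labelled as WT, and the same kit. The labels do not say what density was used or whether a pair came from separate cultures, and the spread that p-values rest on may therefore be technical. Values are TPM, transcript abundances scaled for length and for library total, so levels of different genes can be set side by side. The number of reads behind them is unknown.

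FOXO proteins are transcription factors that AKT kinase, acting after growth factor or antigen receptor signals, phosphorylates and keeps out of the nucleus. In resting lymphocytes they act on genes of cell cycle arrest, survival and homing, and FOXP1 is a further forkhead factor that naive mouse T cells need to stay quiescent. BTG and TOB proteins bind the CCR4-NOT complex, which shortens the poly(A) tails of mRNA. Tsc22d3 encodes GILZ, a leucine zipper protein that the glucocorticoid receptor induces.

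RNA of 3 of the 10 genes was higher at high density: Tsc22d3 by 4.20-fold, Nr3c1 by 3.08-fold and Foxo3 by 2.99-fold, as ratios of mean TPM. None of the 10 was called lower. A gene was called at a Benjamini-Hochberg adjusted p under 0.05 in limma, fitted to log2(TPM + 1) of the 10936 rows that averaged 1 TPM or more, a filter that all 10 genes passed. Over all rows tested, 4.57% were called higher and 2.11% lower, 6.68% in all. The median log2 fold change was 0.69 over the 10 genes and 0.12 over all rows tested. After centring each library on its median these medians were 0.51 and −0.06, and after quantile normalisation 0.60 and −0.01. An unadjusted p under 0.05 was reached by 23.5% of all rows tested, 1720 higher and 849 lower, and by 6 of the 10 genes, all higher. All 10 log2 fold changes were above 0, as were 6527 of the 10936. In bulk RNA, fewer cells that express a gene and less RNA per cell cannot be told apart.

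How many rows were called depended on the libraries used, and calls named below from fewer libraries are to be read against these shares. The share of all rows called higher was 23.1% without high-1, 11.2% without high-2, 2.14% without low-1 and 1.33% without low-2. The share called lower was 6.81%, 10.9%, 0.786% and 0.805% in that order. Centring each library on its median gave 1.46% higher and 1.41% lower, quantile normalisation gave 1.98% and 1.32%, and a filter at a mean of 5 TPM gave 6.35% higher. Without any filter limma called 0 rows in either direction, the 10 genes included, with 2565 rows and 4 of the 10 at an unadjusted p under 0.05.

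The 13 T lineage and thymocyte markers, all of which passed the filter, summed to 9152 and 7930 TPM in the high density libraries, against 9152 and 8240 TPM in the low density libraries. Within that sum limma called 1 of the 13 higher and 2 lower. Cd2, a T cell adhesion receptor gene, was at 309.7 and 278 TPM at high density, against 99.8 and 91.4 TPM at low density (limma adjusted p = 0.00225). The recombinase gene Rag1 was at 185 and 182 TPM at high density, against 609 and 480.2 TPM at low density (adjusted p = 0.00283) and Rag2 at 15.99 and 12.9 TPM at high density, against 47.7 and 40.6 TPM at low density (adjusted p = 0.00702). Markers of other cells were low: the 7 B cell markers summed to at most 3.03 TPM in any library, and 2 of them were at 0 in all. The 10 myeloid markers, 3 of them at 0 in all, summed to 16.2 and 12.2 TPM in the high density libraries, against 17.02 and 6.73 TPM in the low density libraries. The 7 erythroid rows, 4 of them at 0 in all, summed to at most 5.004 TPM. The 9 fibroblast and epithelial markers, 3 of them at 0 in all, summed to 0.321 and 0.729 TPM in the high density libraries, against 47.3 and 0.779 TPM in the low density libraries. Most of the value in low-1 was the collagen genes Col1a1 (30.3 TPM) and Col1a2 (14.5 TPM), and their part in the results was not tested. Low-1 was also the higher of the low density pair for all 10 genes, as it was for 69.7% of rows tested.

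Promoter windows, the 250 bases before a start site, were taken from RefSeq on GRCm38.p6 and matched 8 of the 10 genes, with 3 start sites each for Tsc22d3 and Foxp1. Windows of Nr3c1 and Tsc22d4 were not analysed here. Windows are printed for Foxo3 and Tsc22d3, whose RNA rose, for Btg1, which holds the core FOXO element, and for Btg2, which holds the cyclic AMP response element. The values are per gene and do not say which start site was used. Capitals mark matches on either strand to GTAAACA (reverse TGTTTAC), the core FOXO element, to TGACGTCA, the cyclic AMP response element, to ACGTG (reverse CACGT), the core bound by hypoxia-inducible factors, and to AGAACA (reverse TGTTCT), the hexamer of the glucocorticoid receptor element. The windows are chr10:42276696-42276945 for Foxo3, chrX:140542669-140542918, chrX:140548572-140548821 and chrX:140600523-140600772 for starts a, b and c of Tsc22d3, and chr1:134079156-134079405 for Btg2, all on the minus strand, and chr10:96616751-96617000 on the plus strand for Btg1.
Foxo3: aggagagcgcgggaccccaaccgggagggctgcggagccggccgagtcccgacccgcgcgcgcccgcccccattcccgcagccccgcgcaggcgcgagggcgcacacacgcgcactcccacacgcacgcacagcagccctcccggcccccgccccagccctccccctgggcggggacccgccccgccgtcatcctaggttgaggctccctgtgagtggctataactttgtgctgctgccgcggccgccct
Tsc22d3 start a: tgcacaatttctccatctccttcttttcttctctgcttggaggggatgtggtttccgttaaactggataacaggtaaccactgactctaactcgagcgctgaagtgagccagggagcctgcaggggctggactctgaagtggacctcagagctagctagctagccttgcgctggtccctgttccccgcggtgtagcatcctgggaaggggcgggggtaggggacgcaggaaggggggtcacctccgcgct
Tsc22d3 start b: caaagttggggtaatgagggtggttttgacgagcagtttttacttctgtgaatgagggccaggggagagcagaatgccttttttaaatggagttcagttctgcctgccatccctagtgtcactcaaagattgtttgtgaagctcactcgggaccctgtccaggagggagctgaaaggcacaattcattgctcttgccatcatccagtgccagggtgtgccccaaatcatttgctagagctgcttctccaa
Tsc22d3 start c: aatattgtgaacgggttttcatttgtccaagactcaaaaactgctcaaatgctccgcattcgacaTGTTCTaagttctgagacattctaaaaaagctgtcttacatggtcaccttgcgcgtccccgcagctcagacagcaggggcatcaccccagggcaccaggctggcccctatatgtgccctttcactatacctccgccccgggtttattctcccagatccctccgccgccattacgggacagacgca
Btg1: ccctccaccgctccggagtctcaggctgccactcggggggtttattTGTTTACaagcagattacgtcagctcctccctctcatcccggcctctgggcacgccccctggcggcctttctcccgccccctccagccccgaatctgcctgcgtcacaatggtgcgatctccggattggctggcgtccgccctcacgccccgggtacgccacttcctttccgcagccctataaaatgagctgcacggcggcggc
Btg2: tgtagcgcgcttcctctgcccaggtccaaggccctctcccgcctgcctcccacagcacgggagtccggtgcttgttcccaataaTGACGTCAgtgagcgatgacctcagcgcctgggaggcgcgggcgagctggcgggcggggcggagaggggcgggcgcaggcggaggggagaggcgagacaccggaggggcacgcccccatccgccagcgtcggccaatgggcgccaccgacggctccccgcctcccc

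Among the windows of the 8 genes only that of Btg1 held the core FOXO element, with its first base at −204 from the start site. Of all 32851 mouse windows, 3.17% held it, and of the 10664 windows of tested genes 2.05%. The receptor hexamer lay at −185 in start c of Tsc22d3 and was held by 16.1% of all windows and 10.6% of those of tested genes. The full glucocorticoid receptor element, an inverted repeat of that hexamer, was in none of the windows of the 8 genes and in 3 of all windows. Btg2 held the cyclic AMP response element at −166, as did 1.55% of all windows and 2.76% of those of tested genes. ACGTG lay at −191 in Tob1 and at −177 in Tob2, whose windows are not printed. It was held by 16.6% of all windows and 22.1% of those of tested genes. The Foxo3 window held 31 CpG pairs and the Tsc22d3 windows 10, 2 and 12, against a median of 16 in windows of tested genes. A match is a run of letters and shows no binding.

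Foxo3 RNA, for the forkhead factor of that family with the highest level here, was 191 and 102 TPM at high density, against 58.3 and 39.6 TPM at low density. The groups did not overlap, but high-1 was 1.88 times high-2. The log2 fold change was 1.52 ± 0.32 (SE), with a limma adjusted p of 0.0175. The difference was 2.08-fold without high-1 and 3.90-fold without high-2. The limma call was lost, with the adjusted p in brackets, without low-2 (0.203), after median centring (0.12) and under quantile normalisation (0.105).

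Foxo1 RNA, for the FOXO factor that maintains naive T cell homing genes in mice, was 52.9 and 66.1 TPM at high density, against 32.6 and 30.5 TPM at low density. Each high density library lay above each low density library. The log2 fold change of 0.89 ± 0.26 (SE) missed the threshold at a limma adjusted p of 0.0616, and passed it without high-1 (0.00666), without high-2 (0.0307) and with the filter at 5 TPM (0.0459). In the GENCODE M21 annotation an antisense gene covers 7.78% of the exon bases of Foxo1 and another 4.34% of those of Tob2, and the use of strand in counting is not stated.

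Foxp1 RNA was 58.5 and 75.4 TPM at high density, against 47.9 and 35.6 TPM at low density, again without overlap. Its log2 fold change of 0.67 ± 0.27 (SE) was not called (limma adjusted p = 0.158), though it passed without high-1 (0.0224). The related genes Foxo4 and Foxp4 had log2 fold changes below 0. Foxo4 was at 41.3 and 32.2 TPM at high density, against 45.5 and 37.2 TPM at low density, with −0.17 ± 0.27 (SE; limma adjusted p = 0.744), and Foxp4 at 55.5 and 53.1 TPM at high density, against 65.3 and 55.97 TPM at low density, with −0.15 ± 0.25 (SE; adjusted p = 0.752). Other genes on the same strand cover 2.18% and 0.982% of the exon bases of Foxp1. Foxo6 was listed at 0 in every library, and Foxp2 and Foxp3 had means below 1 TPM.

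Nr3c1 RNA, for the receptor through which glucocorticoids kill thymocytes, was 204 and 239 TPM at high density, against 82.6 and 61.4 TPM at low density. The lowest high density value was 2.48 times the highest low density value. The log2 fold change was 1.62 ± 0.25 (SE; limma adjusted p = 0.00345), and the ratio lay between 2.68 and 3.61 with any library left out. The call was lost without low-2 (0.069). Its nearest paralog, the mineralocorticoid receptor gene Nr3c2, was at 6.31 and 12.7 TPM at high density, against 4.78 and 3.73 TPM at low density and was not called (limma adjusted p = 0.159), except without high-1 (0.00745), where its ratio was 2.98, against 1.48 without high-2. Nr3c1 made up 97.01% and 94.95% of the summed TPM of the pair at high density, against 94.5% and 94.3% at low density.

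Tsc22d3 RNA was 122 and 119 TPM at high density, against 38.03 and 19.4 TPM at low density. The high density values nearly coincided, while low-1 was 1.96 times low-2. The log2 fold change was 2.11 ± 0.31 (SE; limma adjusted p = 0.00281), the largest of the 10 genes. It was 6.22-fold without low-1 and 3.17-fold without low-2, and it was called without each library in turn and after either change of scaling.

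Tsc22d4, one of the long TSC22 proteins that bind the pseudokinase NRBP1, was at 169 and 132 TPM at high density, against 140.1 and 111 TPM at low density. The groups overlapped, and the log2 fold change was 0.26 ± 0.25 (SE; limma adjusted p = 0.568). Tsc22d2 was at 11.9 and 13.8 TPM at high density, against 8.97 and 7.68 TPM at low density and was not called (limma adjusted p = 0.28), and Tsc22d1 had a mean below 1 TPM. Tsc22d3 made up 40.3% and 44.9% of the summed TPM of this family at high density, against 20.3% and 14.04% at low density, and Tsc22d4 55.8% and 49.8% against 74.6% and 80.4%. Such shares do not depend on how a library is scaled.

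**Figure D1:**
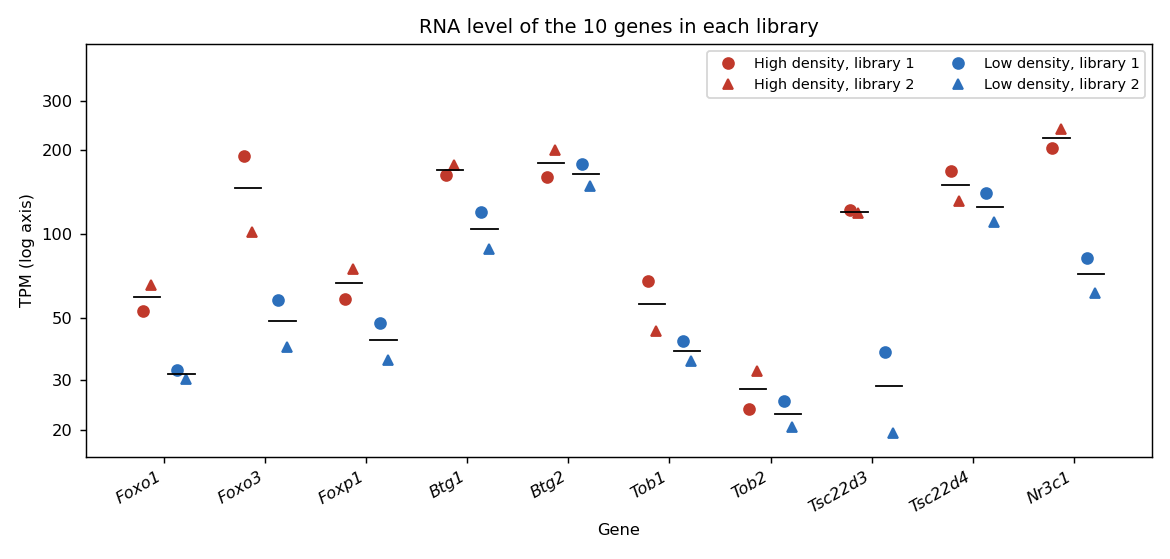
RNA level in TPM, on a log axis, of each of the 10 genes in the libraries of the high density and low density groups, with the mean of each group. Tsc22d3, Nr3c1 and Foxo3 have the widest gaps between groups, and Btg2, Tob2 and Tsc22d4 overlap.

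Btg1 RNA was 163 and 178 TPM at high density, against 119.8 and 88.4 TPM at low density. The groups did not overlap, yet the log2 fold change of 0.72 ± 0.25 (SE) was not called (limma adjusted p = 0.104), except without high-1 (0.0264). Btg2, a p53 target, was at 161 and 199.6 TPM at high density, against 178 and 149 TPM at low density, so its groups overlapped. Its log2 fold change was 0.13 ± 0.24 (SE; limma adjusted p = 0.777), and it was −0.05 after median centring and −0.02 without high-2.

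Tob1, which restrains proliferation of human T cells, was at 67.97 and 45.1 TPM at high density, against 41.4 and 35.2 TPM at low density. High-2 lay 1.09-fold above low-1, the narrowest gap among the genes without overlap. The log2 fold change was 0.52 ± 0.28 (SE; limma adjusted p = 0.282), called without high-2 (0.0222). Tob2 was at 23.7 and 32.4 TPM at high density, against 25.2 and 20.4 TPM at low density, with overlap and a limma adjusted p of 0.6.

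Btg3, a relative of Btg1 and Btg2, was called higher, at 17.5 and 18.5 TPM at high density, against 8.47 and 5.08 TPM at low density (log2 fold change 1.33 ± 0.32 SE, limma adjusted p = 0.0324). That call was lost without low-1 (0.176), without low-2 (0.739), after median centring (0.071) and under quantile normalisation (0.0733). Btg4 had a mean below 1 TPM. The summed level of the BTG and TOB genes was 453 ± 28.7 TPM at high density and 336 ± 52.7 TPM at low density (SD, n = 2 each). Btg2 made up 37.2% and 42.2% of it at high density, against 47.8% and 50.1% at low density, and Btg1 37.6% and 37.5% against 32.1% and 29.6%.

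The summed level of the FOXO genes was 242 ± 60.3 TPM at high density and 122 ± 20.6 TPM at low density (SD, n = 2 each). Foxo3 made up 66.96% and 50.8% of it at high density, against 42.7% and 36.9% at low density, and Foxo4 14.5% and 16.1% against 33.3% and 34.7%. Foxo1 had overlapping shares, 18.6% and 33.1% at high density and 23.9% and 28.4% at low density. Within the FOXP genes Foxp1 made up 51.3% and 58.6% at high density, against 42.3% and 38.8% at low density. These shares were described and not tested.

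**Figure D2:**
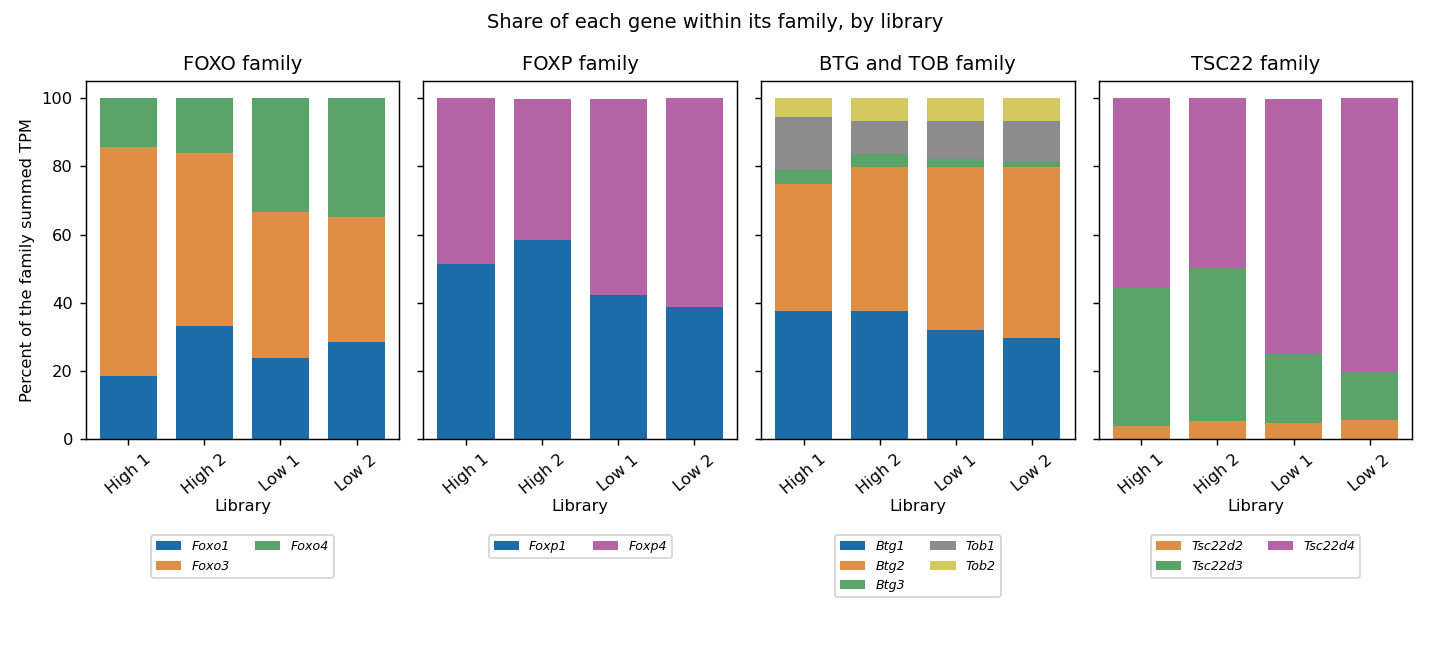
Stacked bars give the percent of the summed TPM of each family that each gene contributes in every library, with the high density libraries left of the low density libraries. The shares of Foxo3 and Tsc22d3 are larger in both high density bars than in either low density bar, and those of Foxo4 and Tsc22d4 are smaller.

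**Figure D3:**
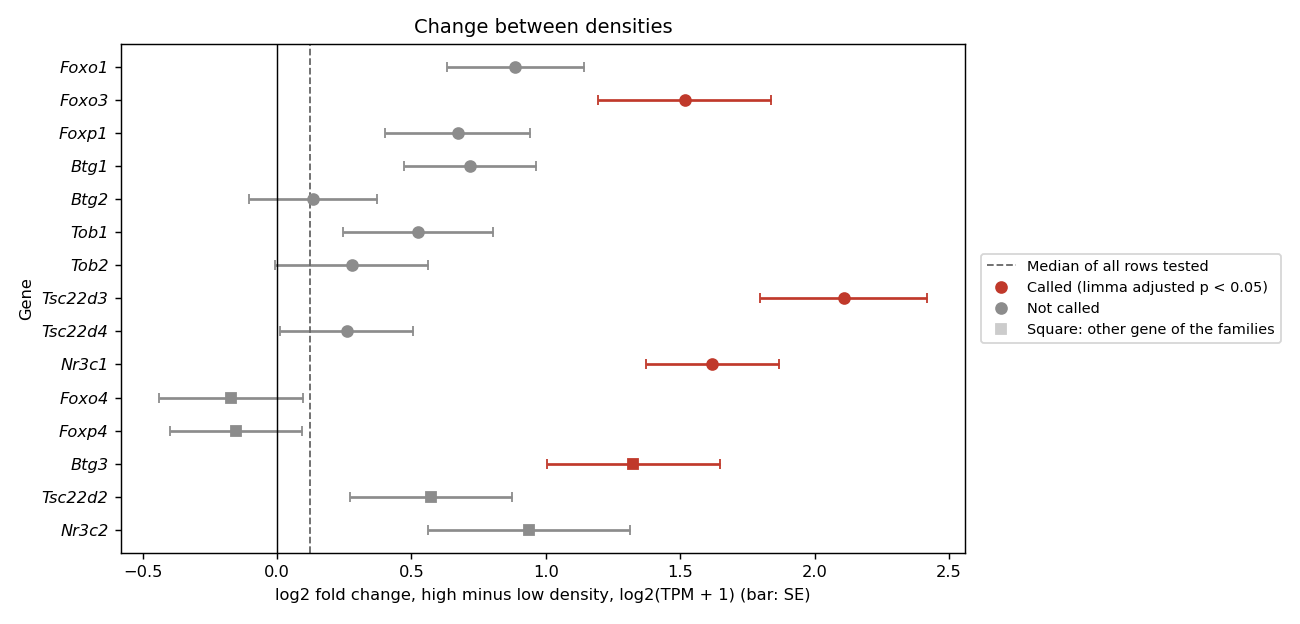
Log2 fold change (high minus low density, on the log2(TPM + 1) scale) of the 10 genes and of 5 other genes of their families, with bars for the SE and the limma calls marked. Tsc22d3, Nr3c1, Foxo3 and Btg3 are called, and Foxo4 and Foxp4 lie below 0.

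In 7 of the 10 genes both high density libraries lay above both low density libraries, against 34.7% of all rows tested. The order of levels differed between the densities. At high density Nr3c1 was the most abundant, at 222 ± 24.2 TPM, followed by Btg2, Btg1, Tsc22d4, Foxo3, Tsc22d3, Foxp1, Foxo1, Tob1 and Tob2, the last at 28.03 ± 6.14 TPM (SD, n = 2). The steps from Nr3c1 to Btg2, from Tsc22d3 to Foxp1 and from Tob1 to Tob2 were without overlap, and all other neighbours overlapped. At low density Btg2 was the most abundant, at 164 ± 20.3 TPM, followed by Tsc22d4, Btg1, Nr3c1, Foxo3, Foxp1, Tob1, Foxo1, Tsc22d3 and Tob2 (SD, n = 2). There the steps after Btg2, Btg1, Nr3c1 and Tob1 were without overlap. Among all rows tested, the mean of Nr3c1 stood at percentile 93.2 at high density and 74.2 at low density, and that of Tsc22d3 at 84.2 and 47.9.

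**Figure D4:**
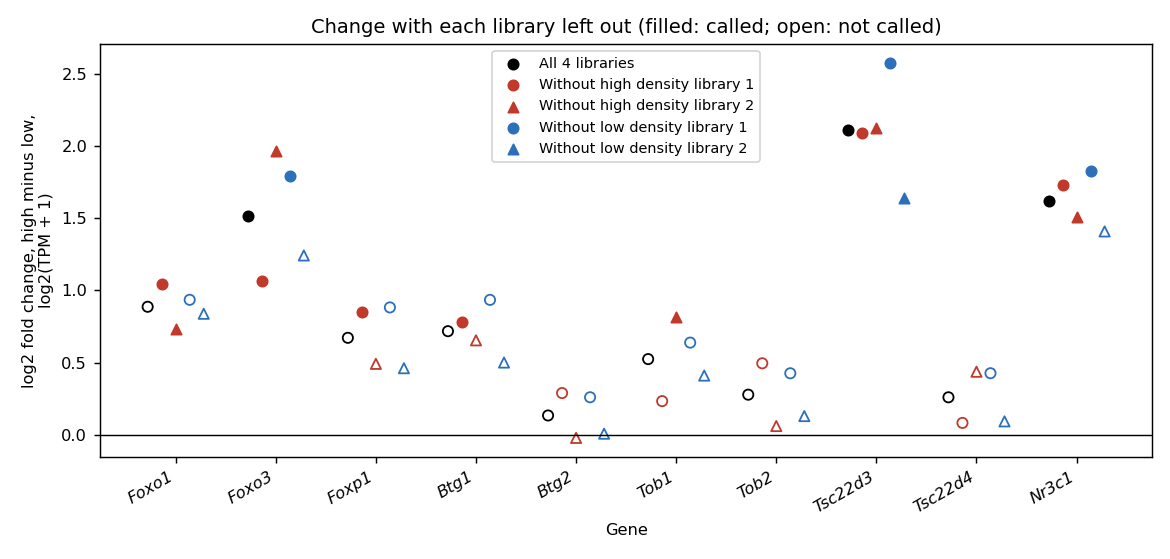
Log2 fold change of the 10 genes (high minus low density, log2(TPM + 1)) with all libraries and with each library left out in turn, with limma calls marked. Tsc22d3 is called in each case, and without low-2 it is the only gene of the 10 that is.

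The tested rows most like each called gene were sought by the smallest Euclidean distance between row-centred log2(TPM + 1) values over the 4 libraries, among 8863 rows that averaged 5 TPM or more and are not predicted genes or small RNAs. For Foxo3 they were Mxi1, a MYC antagonist gene, at a distance of 0.121, Zdhhc9 at 0.158 and the aldehyde dehydrogenase gene Aldh2 at 0.163. Mxi1 was at 99.4 and 56.96 TPM at high density, against 30.3 and 22.4 TPM at low density. It was sought by its likeness to Foxo3, so the shared maximum in high-1 is no separate result. For Nr3c1 they were Csrnp1 at 0.0983, the POU factor gene Pou6f1 at 0.115 and Atp8a2 at 0.159. For Tsc22d3 they were Unc13a at 0.367, Mtmr9 at 0.453 and the histone demethylase gene Kdm7a at 0.454.

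Upstream of the FOXO proteins, 1 of 27 tested genes of PI3K, AKT and related control was called, and the list median log2 fold change was 0.02. The 2 lower genes, neither of them called, were Sgk1 and Akt1. Sgk1 was at 12.4 and 4.22 TPM at high density, against 21.5 and 21.4 TPM at low density (limma adjusted p = 0.0563). Akt1 was at 77.4 and 67.5 TPM at high density, against 123 and 118 TPM at low density (limma adjusted p = 0.087). The gene called was Phlpp1, an AKT phosphatase, at 25.5 and 45.2 TPM at high density, against 15.8 and 11.01 TPM at low density (2.64-fold, limma adjusted p = 0.0394). Its call was lost without low-1 (0.181), without low-2 (0.648), after median centring (0.0703), under quantile normalisation (0.0717), with a pseudocount of 5 (0.0522), without the variance trend (0.0636) and after rescaling without ribosomal protein genes (0.058). Calls in this list, higher and lower, numbered 8 and 2 without high-1, 3 and 4 without high-2, 0 and 0 without low-1, 0 and 0 without low-2, 0 and 0 after median centring, 0 and 0 after quantile normalisation.

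Known FOXO targets were called in both directions, 8 higher and 4 lower of 31 tested, and the list median was 0.60. The cyclin-dependent kinase inhibitor gene Cdkn1b, which encodes p27, was at 493 and 287 TPM at high density, against 102 and 80.2 TPM at low density (4.29-fold, limma adjusted p = 0.00204), a call lost after median centring (0.0615). Txnip, which restrains glucose uptake, was at 255 and 335 TPM at high density, against 38.99 and 44.2 TPM at low density (7.10-fold, adjusted p = 0.000205). Neither gene had overlapping groups. The mitophagy gene Bnip3, also a hypoxia gene, was at 174 and 102 TPM at high density, against 3.27 and 1.48 TPM at low density. It was 57.97-fold higher (limma adjusted p = 4.11e-05), 93.01-fold without low-1 and 42.1-fold without low-2. Its low density values were near the filter of 1 TPM, where a ratio of means is unstable. The log2 fold change of Bnip3 was 5.36, and with a pseudocount of 5 it was 4.24.

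The other rises were those of the atypical cyclin gene Ccng2 (6.16-fold, 3.31-fold without high-1), Klhl24 (3.83-fold), the inhibitory receptor gene Ctla4 (3.36-fold), the PI3K inhibitor gene Pik3ip1 (2.47-fold) and Bcl2l11, which encodes the death protein BIM (2.33-fold). Cyclin D1 RNA (Ccnd1), which FOXO factors repress, fell to 60.99 and 56.6 TPM at high density, against 221 and 201 TPM at low density (limma adjusted p = 0.00133). Genes that FOXO1 activates in mouse lymphocytes made up the remaining falls: Il7r, for the interleukin 7 receptor, at 11.7 and 6.44 TPM at high density, against 30.5 and 20.9 TPM at low density, and the genes Rag1 and Rag2 given above, at ratios of 0.336 and 0.327.

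Several of these calls were not kept. The limma call of Ccng2 was lost after median centring (0.083) and under quantile normalisation (0.0648). That of Klhl24 was lost without low-2 (0.13), after median centring (0.0727) and under quantile normalisation (0.0717), and that of Ctla4 without low-2 (0.0907). For Pik3ip1 it was lost without low-2 (0.425), after median centring (0.0967) and under quantile normalisation (0.0733), and for Bcl2l11 without low-1 (0.113) and without low-2 (0.418). Il7r was no longer called without low-1 (0.496), without low-2 (0.178), after median centring (0.0806), under quantile normalisation (0.0764) and after rescaling without ribosomal protein genes (0.0527), nor Rag2 without low-1 (0.254) and without low-2 (0.148). Calls in the FOXO target list, higher and lower, numbered 14 and 8 without high-1, 16 and 5 without high-2, 7 and 2 without low-1, 4 and 3 without low-2, 4 and 3 after median centring, 5 and 3 after quantile normalisation.

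Around the BTG and TOB proteins, 1 of 18 tested genes of deadenylation was called, with a list median of 0.10. Cnot6l, a catalytic subunit of CCR4-NOT, was at 73.3 and 76.8 TPM at high density, against 42.8 and 35.1 TPM at low density (1.93-fold, limma adjusted p = 0.0466). This call was lost without low-1 (0.313), without low-2 (0.745), after median centring (0.0746), under quantile normalisation (0.0677), with a pseudocount of 5 (0.0522), without the variance trend (0.0797) and with the replicate block (0.0601). Calls in the list, higher and lower, numbered 3 and 1 without high-1, 1 and 1 without high-2, 0 and 0 without low-1, 0 and 0 without low-2, 0 and 0 after median centring, 0 and 0 after quantile normalisation. Among the TSC22 partners limma called 0 of 4 tested, with 0 at an unadjusted p under 0.05, against 23.5% of all rows.

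Genes induced by glucocorticoids were called higher in 7 of 17 tested, with 1 lower, and the list median was 0.78. Tsc22d3 is among the 7 called higher, and Txnip, Bcl2l11 and the called lower gene Il7r also stand in the FOXO target list. Of the 17 log2 fold changes, 13 were above 0 and 4 below. An unadjusted p under 0.05 in limma was reached by 11 of the 17, 9 higher and 2 lower, against 23.5% of all rows. The 2 lower among these 11 were Il7r and Sgk1. Sgk1, given above, was at a ratio of 0.386 and not called. Ddit4, an inhibitor of mTORC1, was at 1923 and 1450 TPM at high density, against 471 and 375 TPM at low density (3.99-fold, limma adjusted p = 0.00108), lost after median centring (0.0522). The clock gene Per1 was 4.13-fold higher, the NF-κB inhibitor gene Nfkbia 3.66-fold and the phosphatase gene Dusp1 2.55-fold. The receptor co-chaperone gene Fkbp5, which glucocorticoids induce, was at 604 and 527 TPM at high density, against 717 and 601 TPM at low density, with overlapping groups (limma adjusted p = 0.604). No glucocorticoid treatment is given in the labels.

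Per1 lost its limma call without low-2 (0.0667), Nfkbia after median centring (0.0573) and Dusp1 without low-1 (0.383), without low-2 (0.654), after median centring (0.0922), under quantile normalisation (0.1) and with the replicate block (0.0503). Calls of the glucocorticoid list, higher and lower, numbered 8 and 2 without high-1, 9 and 2 without high-2, 5 and 0 without low-1, 4 and 0 without low-2, 4 and 0 after median centring, 6 and 0 after quantile normalisation.

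Among chaperones and coregulators of the glucocorticoid receptor, 3 of 20 were called lower and 0 higher in limma, with a list median of −0.19. An unadjusted p under 0.05 was reached by 12 of the 20, against 23.5% of all rows, and of these 7 were lower and 5 higher. The lower ones were the chaperone and cochaperone genes Hsp90aa1, Hsp90ab1, Hspa8, Dnaja1, Stip1, Ptges3 and Fkbp4, and the higher ones the coregulator genes Ncoa1, Ncoa2, Ncoa3, Ncor1 and Ep300. Of these coregulators Ncoa1 had the smallest p, at 13.3 and 19.9 TPM at high density, against 8.65 and 5.70 TPM at low density (limma adjusted p = 0.0711), and it passed without high-1 (0.00879). The constitutive HSP70 gene Hspa8 was at 747 and 282 TPM at high density, against 1973 and 1489 TPM at low density (limma adjusted p = 0.0123). Its ratio was 0.297, and 0.163 without high-1, and the call was lost after median centring (0.0995), under quantile normalisation (0.0807) and with robust moderation (0.0884). Hsp90aa1, whose protein holds the receptor ready for hormone, was at 206 and 159.6 TPM at high density, against 385 and 319.9 TPM at low density (adjusted p = 0.0377), lost without low-1 (0.421), without low-2 (0.253), after median centring (0.0795), under quantile normalisation (0.0875), without the variance trend (0.0867) and after rescaling without ribosomal protein genes (0.0528). Dnaja1, an HSP40 gene, was at 48.9 and 63.4 TPM at high density, against 113 and 104 TPM at low density (limma adjusted p = 0.0431), lost without low-1 (0.45), without low-2 (0.474) and without the variance trend (0.0816). Calls, higher and lower, numbered 7 and 6 without high-1, 1 and 6 without high-2, 0 and 1 without low-1, 0 and 1 without low-2, 0 and 1 after median centring, 0 and 1 after quantile normalisation.

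Other quiescence factors were called higher in 12 of 32 tested and lower in 0 by limma, with a list median of 0.71 and called ratios between 1.97 and 7.80. Of these 12, Cdkn1b and Pik3ip1 also stand in the FOXO target list. Beside them and Mxi1, the called genes were led by Vsir, for the inhibitory receptor VISTA, at 17.2 and 8.93 TPM at high density, against 1.98 and 1.37 TPM at low density (limma adjusted p = 0.00474). The forkhead gene Foxn3 was at 47.6 and 48.7 TPM at high density, against 18.2 and 14.3 TPM at low density (adjusted p = 0.00702), and Ndrg1, a growth arrest gene that hypoxia also induces, at 642 and 182 TPM at high density, against 68.7 and 54.5 TPM at low density (adjusted p = 0.00814). The rest were Klf6, Klf7, Rb1, Peli1, Pdcd4 and Hbp1. Calls lost by these genes and by Mxi1 are not listed singly, and the counts below for the whole list include them. An unadjusted p under 0.05 was reached by 19 of the 32 genes, 17 higher and 2 lower, against 23.5% of all rows. Those lower were Slfn2, mutated in mice whose T cells lose quiescence, at 17.1 and 20.2 TPM at high density, against 30.5 and 35.7 TPM at low density (limma adjusted p = 0.103), and the forkhead gene Foxj1 at 1.70 and 2.40 TPM at high density, against 5.96 and 5.94 TPM at low density (adjusted p = 0.0652). Slfn2 passed the test without high-1 (0.0407) and without high-2 (0.0181), and Foxj1 without high-1 (0.0221), without high-2 (0.009) and without the variance trend (0.038).

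Vsir lost its limma call after median centring (0.0615) and under quantile normalisation (0.0564), Foxn3 without low-1 (0.0755) and without low-2 (0.256) and Ndrg1 after median centring (0.108), under quantile normalisation (0.0795) and with robust moderation (0.178). The ratio of Ndrg1 was 6.69, 2.96 without high-1 and 10.4 without high-2. Calls of this list, higher and lower, numbered 21 and 3 without high-1, 18 and 2 without high-2, 7 and 0 without low-1, 3 and 0 without low-2, 2 and 0 after median centring, 4 and 0 after quantile normalisation.

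Of 32 proliferation genes limma called 0 in either direction, with a list median of −0.19, 9 log2 fold changes above 0 and 23 below. An unadjusted p under 0.05 was reached by 1 of them, against the 23.5% of all rows. This was Mcm2, a subunit gene of the replicative helicase, at 184 and 187 TPM at high density, against 341 and 308 TPM at low density, without overlap (log2 fold change −0.80 ± 0.22 SE, limma adjusted p = 0.0528), which passed without high-1 (0.0132), without high-2 (0.015), with the filter at 5 TPM (0.0379) and with robust moderation (0.0364). Mki67, the marker of cycling cells, was among the 9 above 0, at 293 and 276 TPM at high density, against 238 and 188 TPM at low density (log2 fold change 0.42 ± 0.23 SE, limma adjusted p = 0.296). Calls, higher and lower, numbered 0 and 7 without high-1, 1 and 4 without high-2, 0 and 0 without low-1, 0 and 0 without low-2, 0 and 0 after median centring, 0 and 0 after quantile normalisation.

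**Figure D5:**
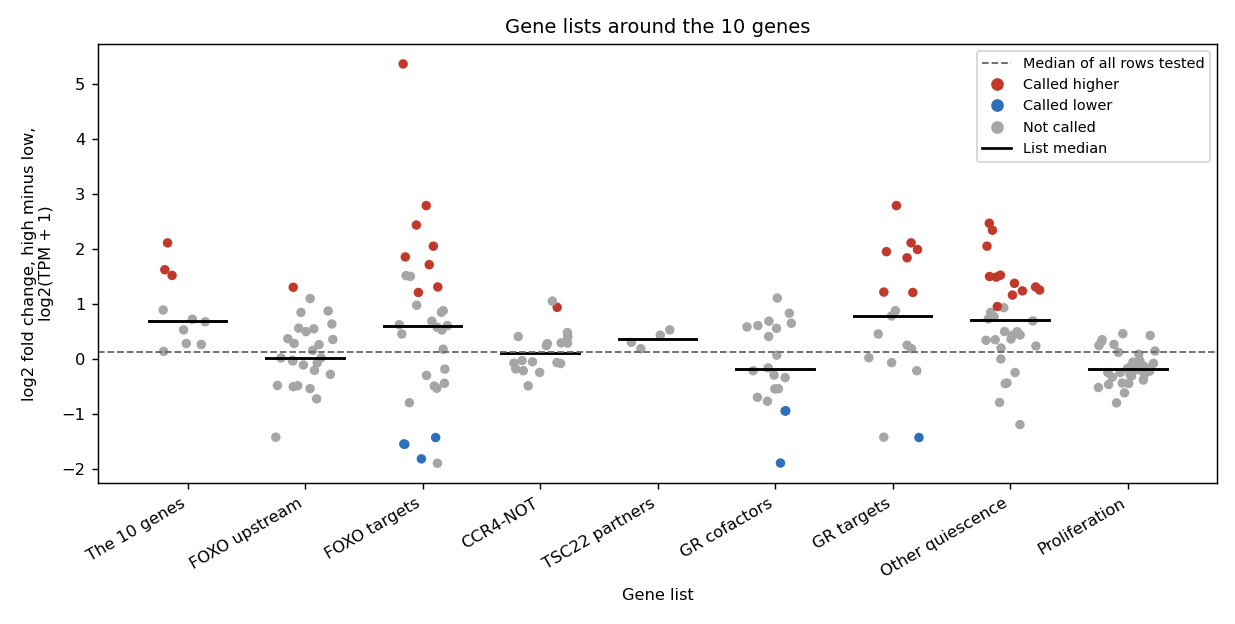
Each point is a tested gene of the named list, placed by its log2 fold change (high minus low density, log2(TPM + 1)) and coloured by its limma call, with the list medians and the median of all rows tested as lines. The medians of the 10 genes, the FOXO targets, the glucocorticoid targets and the other quiescence factors lie between 0.60 and 0.78, and that of the proliferation genes at −0.19. Some genes stand in several lists.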

How the data were processed

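RNA of 4 BEKO libraries was analysed from a single table. The authors deposited it as TPM per gene, each column summing to a fixed total. Columns were tied to libraries by the column names in the labels. Libraries were strand-specific, per the labels' protocols. The submitters' processing notes name mm9 and DESeq2 1.2.10 without a role, and the aligner, the counter and the gene annotation were not given in the sources used here. TPM keeps no depth, so no counting error is given, and it is relative within a library.

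Rows averaging at least 1 TPM were fitted on log2(TPM + 1) with limma 3.58.1 in R 4.3.3 (group term, variance trend, two-sided), adjusted by Benjamini-Hochberg over 10936 rows and called under 0.05. Residual degrees of freedom were 2, with 9.53 from moderation. An exact permutation test of 2 against 2 has a smallest p of 0.333, so none was run. Lists were described by counts and medians only. Alternatives covered filter, pseudocount, scaling, variance model, replicate block and each library left out.

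The 10 genes and all lists were chosen with earlier results of these data known. Named by rule were the 10, their family genes, up to 4 called genes of smallest p per list and the 3 rows most like each called gene. Ccng2, Klhl24, Ctla4, Pik3ip1, Bcl2l11, Il7r, Rag1, Rag2, Nfkbia, Dusp1, Klf6, Klf7, Rb1, Peli1, Pdcd4, Hbp1, Fkbp5, Mki67, Mcm2, Cd2, Slfn2, Foxj1, Sgk1, Akt1, the 5 coregulator genes, the uncalled chaperone genes and the collagen genes fall outside it and were picked after their values were seen. RefSeq windows and GENCODE M21 are on another build than mm9.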

Additional observations from a re-analysis of the deposited data

How the results depend on the processing

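Of 14 alternatives, Tsc22d3 kept its call in 13, Nr3c1 in 12 and Foxo3 in 10. Without a filter limma called 0 of the 10 genes and 0 of all rows in either direction, with 4 of the 10 and 2565 rows at an unadjusted p under 0.05. With 1 library left out, 1 to 6 of the 10 genes were called higher, as were 145 to 2525 of all rows, and 86 to 1193 rows were called lower; the lone library is then assumed to vary like the other group. Rows called higher and lower numbered 500 and 231, against 160 and 154 after median centring and 216 and 144 after quantile normalisation, and 144 were lower without the variance trend. The cause was not tested. The log2 fold change of Btg2 was −0.0526 after median centring, and with 1 library left out it ranged over −0.0213 to 0.289, and that of Foxo4 over −0.346 to 0.00446. Over 61 named genes and 14 alternatives, 683 of 853 outcomes were the same (Foxj1 was not tested at 5 TPM), 147 lost a call, 20 gained one and 3 changed direction. The groups share replicate numbers, but deviations of same-numbered libraries correlated at 0.0416 over tested rows, so the numbers were not taken as pairs. With a replicate block 3 of the 10 genes were called higher, and 600 rows higher and 337 lower. Depth is unknown, so the limit it sets cannot be given.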
